A study of Homo sapiens with 12 samples.

Results

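The miR-99, miR-100, and miR-125 family was examined here through 9 mature miRNAs: hsa-miR-100-5p, hsa-miR-99a-5p, hsa-miR-99b-5p, hsa-miR-125a-5p, hsa-miR-125b-5p, and 4 strands from the other arm of these hairpins, hsa-miR-99b-3p, hsa-miR-125a-3p, hsa-miR-125b-1-3p, and hsa-miR-125b-2-3p. They were taken by name from the 2588 mature miRNAs of the count table. Where a name had several precursor entries, the entry with the highest total was used. All 9 were among the 491 miRNAs that passed the expression filter. Small RNA was sequenced from A549 cells, a human lung adenocarcinoma line, at 0, 24, and 96 h of treatment with TGF-β, a cytokine that drives these cells into epithelial-mesenchymal transition (EMT). Each of the 3 time points had 2 libraries. Each of the 6 libraries had 2 samples with different dates in their titles, taken here as 2 sequencing runs. The earlier date was the same for all. One later date was shared by both 24 h libraries and 0 h replicate 2, and another by both 96 h libraries and 0 h replicate 1. If the counts hold both runs, a change from 24 to 96 h cannot be told apart from this difference in date. A change from 0 h is then mixed with date in part, since only 1 of the 2 libraries at 0 h shares the later date of either treated time. The 0 h libraries were the only ones from untreated cells, so that an effect of TGF-β and an effect of time in culture cannot be told apart. Nothing in the labels says that the 2 libraries of a time point came from separate cultures, so p-values measure the spread between libraries, which may be technical. With small RNA alone, the labelled identity of the cells was not checked against marker genes.

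A miRNA gene is transcribed as a long precursor, cut to a hairpin, and then to a duplex of a 5p and a 3p strand, of which one usually enters the silencing complex and the other is mostly degraded. Bases 2 to 8 of the mature strand, the seed, do most of the target recognition. In the human genome miR-99 or miR-100, a let-7, and a miR-125 gene recur side by side in 3 clusters, and members of these families are known for roles in differentiation and in the response of epithelial cells to TGF-β.

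Only the strands that define the seed groups and the arms compared further on are shown, as RNA from 5′ to 3′ with the seed in capitals. They were read from a RefSeq table of GRCh38.p14, and each was also found within the GRCh37 sequence of its hairpin. The 3 strands of the miR-99/100 group carried the same seed.
hsa-miR-100-5p: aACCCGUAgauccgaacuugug
hsa-miR-99a-5p: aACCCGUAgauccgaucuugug
hsa-miR-99b-5p: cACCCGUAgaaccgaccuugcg
Counted from 1 at the 5′ end, miR-100-5p and miR-99a-5p differed by a single substitution, A16U, whereas miR-100-5p and miR-99b-5p differed by A1C, U11A, A16C, and U21C. No other human mature miRNA in the table had this seed.

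The miR-125 group carried a different seed, and its 5p strands were alike over the first 13 bases.
hsa-miR-125a-5p: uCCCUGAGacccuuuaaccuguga
hsa-miR-125b-5p: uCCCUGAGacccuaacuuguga
One more human miRNA, miR-4319, shared this seed, and it had 0 counts in every library, where a count of 0 allows up to 3 counts, or 0.502 to 1.28 CPM (the reads of a miRNA scaled to a common library total). The seeds of the 4 3p strands differed from each other. They are shown because 2 of them stem from different miR-125b precursors and the other 2 give the arm ratio of a hairpin.
hsa-miR-99b-3p: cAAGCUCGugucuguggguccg
hsa-miR-125a-3p: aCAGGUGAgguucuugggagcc
hsa-miR-125b-1-3p: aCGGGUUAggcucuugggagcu
hsa-miR-125b-2-3p: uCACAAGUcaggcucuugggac
Compared position by position without alignment, the last pair differed at 17 of 22 positions. With a shift of 2 bases both hold the stretch ggcucuuggga, so the difference lies mainly at their 5′ ends. How well the mapping kept reads of the miR-125b-1 and miR-125b-2 hairpins apart on the 3p arm was not tested. MiR-125b-5p was identical in both hairpins.

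In GRCh37 (GENCODE release 44, lifted), the chromosome 11 cluster lay on the minus strand in introns of the lncRNA gene MIR100HG, with MIR100 at chr11:122022937-122023016, MIRLET7A2 at chr11:122017229-122017301, and MIR125B1 at chr11:121970465-121970552. The cluster spanned 52.6 kb. On chromosome 19 the plus strand held MIR99B at chr19:52195865-52195934 and MIRLET7E at chr19:52196039-52196117, both in introns of the protein-coding gene SPACA6, and MIR125A at chr19:52196507-52196592, which overlapped an annotated SPACA6 exon. All 3 lay within 728 bases. Chromosome 21 held MIR99A at chr21:17911409-17911489, in an intron of the lncRNA gene MIR99AHG, and MIRLET7C at chr21:17912143-17912236 and MIR125B2 at chr21:17962557-17962645, both of which overlapped annotated MIR99AHG exons on the plus strand. This cluster spanned 51.2 kb. The chromosome 19 hairpins are thus packed together, and in each of the other clusters the miR-125b hairpin lies far from its miR-99 or miR-100 hairpin.

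Library totals on mature miRNAs were between 2335185 and 5971197 reads. Levels are given as CPM scaled by TMM, a normalization that sets the bulk of miRNAs equal between libraries, with factors of 0.738 to 1.36. The scaling decided several of the directions below. MiR-21-5p alone took 56.1 and 52.4% of the reads at 0 h, 56.8 and 58.1% at 24 h, then 65.5 and 63.8% at 96 h. Over the 491 tested miRNAs, the median change on the log2 scale from 0 to 96 h was −0.10 under TMM, −0.03 with DESeq2's size factors, −0.45 on total counts without miR-21-5p, and −0.83 on total counts.

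Chromosome 11 supplied most of the family's reads. MiR-100-5p was the fourth most abundant miRNA in all 6 libraries, at rank 4 throughout. Its level was 23591 and 20610 TMM CPM at 0 h, 27642 and 28544 at 24 h, then 40883 and 44346 at 96 h. The time points did not overlap, and both 96 h libraries stood well above the rest. The means were 22100 ± 2108, 28093 ± 638, and 42614 ± 2449 (SD, n = 2). At 96 h against 0 h miR-100-5p rose by a log2-fold change of 0.95 (SE 0.15, adjusted p = 0.000807 by the quasi-likelihood test of edgeR, adjusted by the Benjamini-Hochberg method), just under the minimum change of 1 used for a call of differential expression. The change at 24 h, 0.35 (SE 0.15, adjusted p = 0.153, edgeR), did not pass the test, and that from 24 to 96 h did, at 0.60 (SE 0.15, adjusted p = 0.0245, edgeR). Without one of the 24 h or 96 h libraries, the latter had an adjusted p between 0.0760 and 0.252 (edgeR). On total counts the change at 96 h was still above 0 but small, at 0.23 (adjusted p = 0.0820, edgeR), and as a share of reads miR-100-5p took 2.76 and 2.81% at 0 h, 2.92 and 2.90% at 24 h, then 3.02 and 3.51% at 96 h.

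The same cluster gave miR-125b-1-3p, the passenger strand of its miR-125b hairpin. It was measured at 121 and 113 TMM CPM at 0 h, 136 and 141 at 24 h, then 176 and 160 at 96 h. Again no library of one time point overlapped with another, at a level far below miR-100-5p. It rose at 96 h by 0.52 on the log2 scale under TMM (SE 0.15, adjusted p = 0.0208, edgeR), whereas on total counts its change was −0.21 (adjusted p = 0.269, edgeR). The rise under TMM was below the minimum change used for a call. With 1 library left out it was 0.48 to 0.63, and it no longer passed by adjusted p without 0 h replicate 2 or either 96 h library.

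Chromosome 21 supplied the least abundant 5p strand. MiR-99a-5p was found at 707 and 374 TMM CPM at 0 h, 731 and 837 at 24 h, then 1192 and 906 at 96 h, from 1254 to 5253 reads per library. The 0 h libraries differed from each other nearly as much as the time points did, and replicate 2 was the low one. Replicate 1 at 0 h shares its later date with the 96 h libraries and replicate 2 with the 24 h libraries. Whether date played a part was not tested. At 96 h miR-99a-5p rose by 0.96 (SE 0.26, adjusted p = 0.0143, edgeR) under TMM, and its change on total counts was 0.26 (adjusted p = 0.342, edgeR). This value rested on the 0 h libraries: it was 1.53 without replicate 1 and 0.58 without replicate 2. Without 96 h replicate 1 it was 0.78 and no longer passed (adjusted p = 0.108, edgeR). At 24 h the change was 0.54 (SE 0.26, adjusted p = 0.207, edgeR), and 1.10 without 0 h replicate 1 (adjusted p = 0.000406, edgeR).

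MiR-125b-2-3p, the passenger strand of the chromosome 21 miR-125b hairpin, was the rarest member. It had 73 to 97 reads per library and 26.8 and 23.6 TMM CPM at 0 h, 32.4 and 27.2 at 24 h, then 22.0 and 20.6 at 96 h. Both 96 h libraries were below all others, by little. Its log2-fold change at 96 h was −0.23 (SE 0.22, adjusted p = 0.417, edgeR) under TMM, and on total counts it fell by 0.96 (adjusted p = 0.00465, edgeR).

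Chromosome 19 gave 4 members. MiR-99b-5p was present at 4343 and 3890 TMM CPM at 0 h, 4704 and 5089 at 24 h, then 5105 and 5896 at 96 h. The libraries of the 3 time points were ordered without overlap but close together. It rose at 96 h by 0.42 (SE 0.14, adjusted p = 0.0371, edgeR) under TMM, although on total counts the sign turned to −0.30 (adjusted p = 0.0793, edgeR), and leaving out any library except 0 h replicate 1 brought the adjusted p above 0.05, to 0.187 at most (edgeR).

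MiR-125a-5p was measured at 3153 and 3444 TMM CPM at 0 h, 4867 and 4084 at 24 h, then 4463 and 5451 at 96 h. The treated libraries at both times were above the 0 h libraries and overlapped with each other. It rose at 96 h by 0.59 (SE 0.16, adjusted p = 0.0127, edgeR) under TMM, with −0.14 on total counts (adjusted p = 0.518, edgeR). Without 96 h replicate 2 the adjusted p was 0.107 (edgeR).

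The 3p strand of miR-99b had a change of opposite sign to its 5p strand under TMM, and on total counts both were below 0. MiR-99b-3p was at 517 and 484 TMM CPM at 0 h, 354 and 363 at 24 h, then 383 and 393 at 96 h. Both 0 h libraries were above all treated ones, and the 24 h values already lay at the level of 96 h. It fell at 96 h by 0.37 (SE 0.13, adjusted p = 0.0488, edgeR), a p just under 0.05 that was 0.0520 to 0.264 (edgeR) when any one of the 6 libraries was left out. The 24 h change was −0.48 (SE 0.14, adjusted p = 0.0575, edgeR). Its change was below 0 under all 4 scalings at both times, and on total counts its change at 96 h was −1.09 (adjusted p = 0.000538, edgeR).

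MiR-125a-3p, the other passenger strand of this cluster, was near 40 TMM CPM throughout, at 38.5 and 35.2, then 35.0 and 37.0, then 44.7 and 36.9. The time points overlapped. Its change at 96 h was 0.15 (SE 0.20, adjusted p = 0.564, edgeR) under TMM and −0.58 (adjusted p = 0.0234, edgeR) on total counts.

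MiR-125b-5p belongs to chromosomes 11 and 21 at once. It was found at 2112 and 2837 TMM CPM at 0 h, 3326 and 2613 at 24 h, then 2777 and 3615 at 96 h. The 2 libraries of a time point lay about as far apart as the time points did, and all 3 time points overlapped. Its log2-fold change was 0.26 (SE 0.20, adjusted p = 0.414, edgeR) at 24 h and 0.37 (SE 0.20, adjusted p = 0.147, edgeR) at 96 h. The 2 precursor entries of miR-125b-5p held almost the same reads, with a difference of 1.07 to 2.45% of the larger entry, so the 5p counts do not tell how many reads came from each chromosome.

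**Figure D1:**
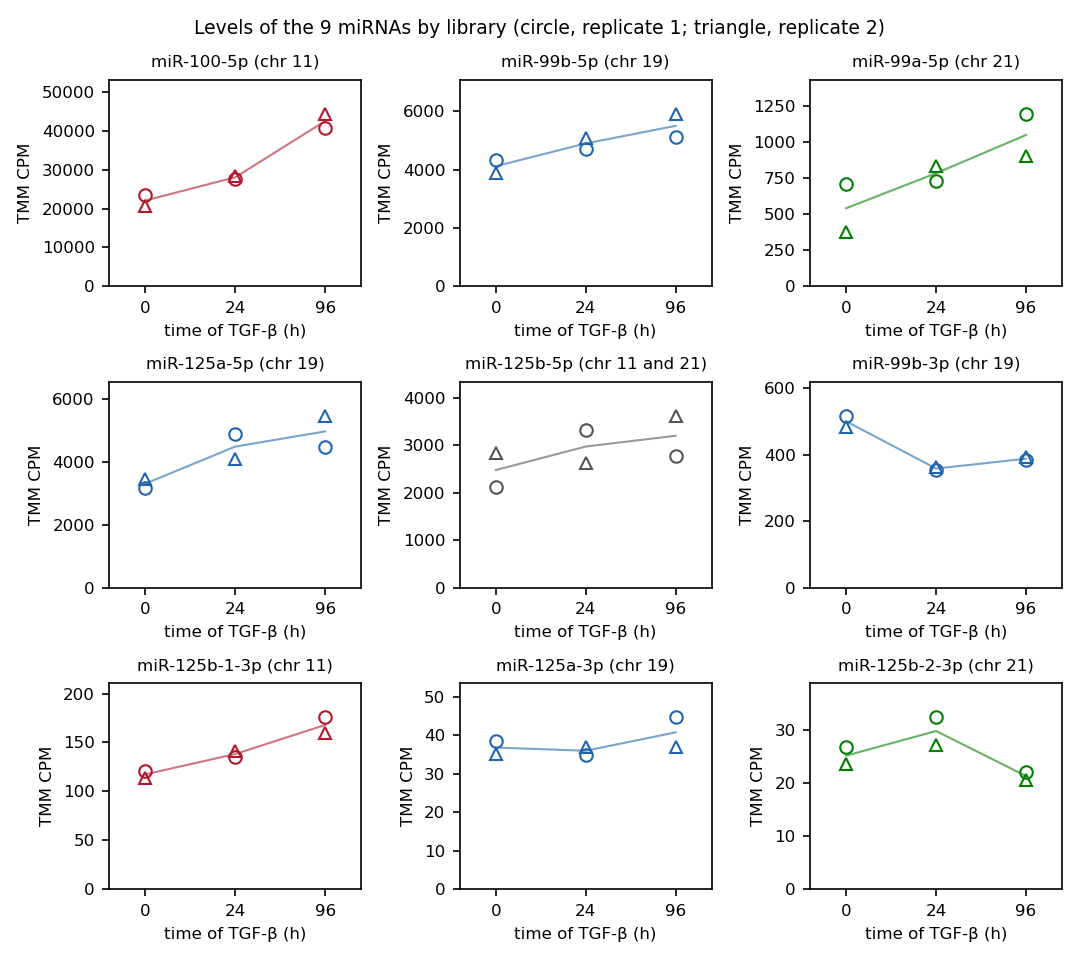
Level of each of the 9 members in TMM-normalized CPM (vertical axes from 0, each with its own range) against the time of TGF-β in h, with a circle for replicate 1, a triangle for replicate 2, and a line through the means of the 2 libraries; red is chromosome 11, blue 19, green 21, and grey both 11 and 21. MiR-100-5p went from 23591 and 20610 at 0 h to 40883 and 44346 at 96 h, while the 2 libraries of a time point lay far apart for miR-99a-5p at 0 h and for miR-125b-5p throughout.

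By mean level, the members ranked in the order miR-100-5p, miR-99b-5p, miR-125a-5p, miR-125b-5p, miR-99a-5p, miR-99b-3p, miR-125b-1-3p, miR-125a-3p, and miR-125b-2-3p at 24 and 96 h, and at 0 h too. In rank among all miRNAs of a library, miR-99b-5p (18 to 23) and miR-125a-5p (21 to 24) overlapped, as did miR-99a-5p (52 to 87) and miR-99b-3p (73 to 91). The neighbours miR-125b-5p (26 to 38) and miR-125b-1-3p (123 to 140) stood clear of these, and miR-125a-3p (206 to 223) stood clear of miR-125b-2-3p (231 to 261). Mature strands are of nearly equal length, so CPM is here a level per molecule, apart from differences in how well each sequence is captured in a library.

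None of the 9 members met both criteria for differential expression, which were an adjusted p under 0.05 with a log2-fold change beyond 1 either way, in any comparison. Against 0 h, 3.46% of all tested miRNAs met both at 24 h and 25.9% at 96 h, while 5.91% did so between 24 and 96 h. By adjusted p alone, the count of members was 0 of 9 at 24 h (7.13% of all tested), 6 of 9 at 96 h (44.0%), and 1 of 9 from 24 to 96 h (12.6%). At an unadjusted p under 0.05 in edgeR, it was 3 of 9 at 24 h (28.3% of all tested), 6 at 96 h (55.8%), and 1 from 24 to 96 h (31.0%). The Wald test of DESeq2 called 2 members by both criteria at 96 h, where it called 22.8% of all tested miRNAs, and 0 in the other comparisons, where it called 3.26% at 24 h and 5.91% from 24 to 96 h. By adjusted p alone 1 member, miR-99b-3p, passed it at 24 h (adjusted p = 0.0447), against 9.37% of all tested. The 6 at 96 h were 5 higher members, where 22.8% of all tested miRNAs were higher, and 1 lower member, where 21.2% were lower. For 7 of 9 members the 96 h libraries did not overlap with the 0 h libraries, which held for 71.7% of all tested miRNAs, a similar share. The median log2-fold change of the members was 0.25 at 24 h and 0.42 at 96 h, against −0.00 and −0.10 over all tested miRNAs. MiR-100-5p and miR-99a-5p were so close to the minimum change that the call depended on the scaling: with DESeq2's size factors they changed by 1.02 (adjusted p = 0.000252, edgeR) and 1.04 (adjusted p = 0.00745, edgeR) and were both called.

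A change of scaling moves all log2-fold changes by nearly the same amount, so the members are also given relative to the median of all tested miRNAs, over the 4 scalings. MiR-99a-5p stood 1.06 to 1.09 above that median and miR-100-5p 1.05 to 1.06. MiR-125a-5p followed with 0.69, miR-125b-1-3p with 0.62, miR-99b-5p with 0.52 to 0.53, miR-125b-5p with 0.46 to 0.47, and miR-125a-3p with 0.25. MiR-125b-2-3p and miR-99b-3p were below it, with −0.14 to −0.13 and −0.27 to −0.26. The 5 members that rose under TMM comprise 3 with a negative change on total counts and 2, miR-100-5p and miR-99a-5p, that stayed positive there without passing the test.

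**Figure D2:**
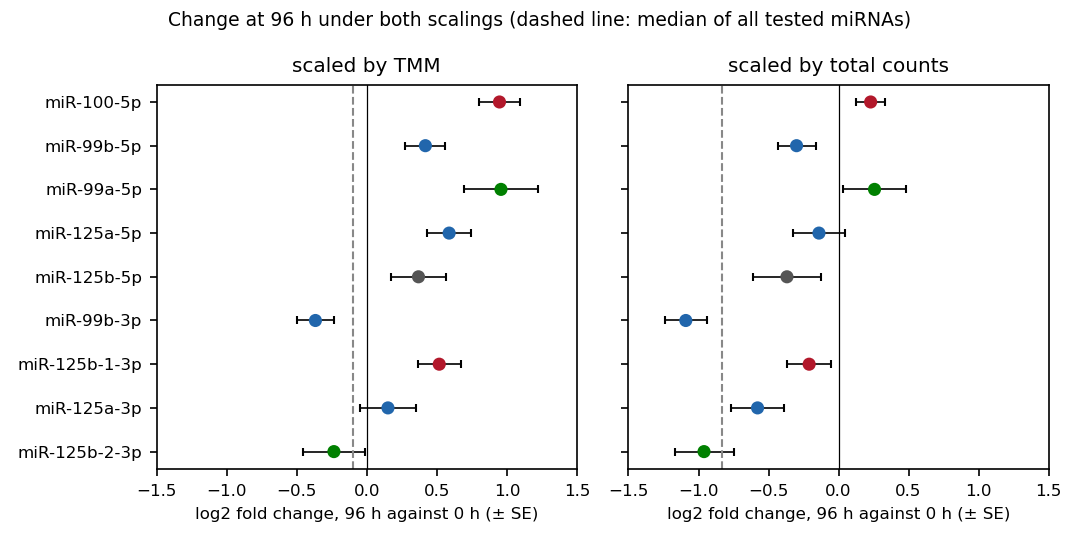
Log2-fold change of each member at 96 h against 0 h (horizontal axes, error bars are the SE of the edgeR fit) with libraries scaled by TMM on the left and by total counts on the right; the dashed lines are the medians of the 491 tested miRNAs, −0.10 and −0.83, and colours mark the chromosome as in the plot of levels. With total counts the whole set lies further to the left, so that miR-99b-5p goes from 0.42 to −0.30 and miR-100-5p from 0.95 to 0.23.

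A ratio of 2 counts within a library needs no scaling, so 10 such ratios were set up to compare the clusters. Each was tested with a two-sided exact permutation test for a trend over the 6 libraries, whose smallest possible p is 0.0222, and was adjusted over the 10 ratios by the Benjamini-Hochberg method. Each p is for the trend over all time points, not for the change at a single time. No ratio passed 0.05 after adjustment. With this smallest p, a ratio could pass only if several of the 10 had similarly small p-values. The outcome therefore does not show that the clusters changed alike.

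Chromosome 11 against 19 gave the clearest separation among the miR-99/100 strands. There were 5.43 and 5.30 reads of miR-100-5p per read of miR-99b-5p at 0 h, 5.88 and 5.61 at 24 h, then 8.01 and 7.52 at 96 h. All libraries were in order of time, with a small step at 24 h and a larger one by 96 h. The log2 ratio was higher than at 0 h by 0.10 at 24 h and by 0.53 at 96 h, against SDs of 0.03 to 0.06 between the libraries of a time point (p = 0.0222, the smallest the exact permutation test allows; adjusted p = 0.111). Within the miR-99/100 seed group, miR-100-5p made up 82.4 and 82.9% of the reads at 0 h, 83.6 and 82.8% at 24 h, then 86.7 and 86.7% at 96 h. MiR-99b-5p made up 15.2 and 15.6% at 0 h but 10.8 and 11.5% by 96 h. Counting error was small beside these differences, with a 95% Wilson interval of 82.1 to 82.6% for the share of miR-100-5p in 0 h replicate 1.

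Ratios with miR-99a-5p were less certain. For each read of miR-99a-5p there were 33.4 and 55.0 reads of miR-100-5p at 0 h, 37.8 and 34.1 at 24 h, then 34.3 and 49.0 at 96 h. The 0 h libraries alone spanned the whole range, and the log2 ratio differed by −0.06 between 96 and 0 h (exact permutation p = 0.911, adjusted p = 0.911). The reads of miR-99a-5p per read of miR-99b-5p were 0.163 and 0.0963 at 0 h, 0.155 and 0.164 at 24 h, then 0.234 and 0.154 at 96 h. One library at 96 h was above all others and the second was not, with a log2 change of 0.60 (exact permutation p = 0.244, adjusted p = 0.306). Since miR-99a-5p and miR-100-5p are 1 base apart and the mismatches allowed by the mapper are not stated in the sources used here, reads of the one may be counted under the other, and how many were was not tested.

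The passenger strands of the miR-125b hairpins gave a comparison of chromosome 11 with 21. There were 4.51 and 4.79 reads of miR-125b-1-3p per read of miR-125b-2-3p at 0 h, 4.17 and 5.15 at 24 h, then 7.94 and 7.72 at 96 h. The 0 and 24 h libraries overlapped and both 96 h libraries were higher, with a log2 change of −0.01 at 24 h and 0.75 at 96 h (exact permutation p = 0.0889, adjusted p = 0.178). The ratio rests on 73 to 97 reads of miR-125b-2-3p. Among the 5p strands, the ratio of miR-125b-5p to miR-125a-5p compares chromosomes 11 and 21 together with 19. It was 0.670 and 0.824 at 0 h, 0.683 and 0.640 at 24 h, then 0.622 and 0.663 at 96 h (log2 change −0.21, exact permutation p = 0.133, adjusted p = 0.222). Both 96 h libraries were below both 0 h libraries, by little, and the 24 h libraries overlapped with each of the others. MiR-125a-5p made up 54.8 to 61.7% of the reads of the miR-125 seed group.

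Ratios were also taken between members of one cluster. Within chromosome 11, there were 194 and 181 reads of miR-100-5p per read of miR-125b-1-3p at 0 h, 204 and 203 at 24 h, then 233 and 277 at 96 h, a log2 change of 0.43 (exact permutation p = 0.0222, adjusted p = 0.111). Within chromosome 21, the ratio of miR-99a-5p to miR-125b-2-3p was 26.3 and 15.8 at 0 h, 22.4 and 30.6 at 24 h, then 53.9 and 43.6 at 96 h, a log2 change of 1.25 (exact permutation p = 0.0444, adjusted p = 0.111). Both ratios pair a 5p with a 3p strand, and their 96 h libraries were above the others. The 5p pair of chromosome 19, miR-99b-5p to miR-125a-5p, had ratios of 1.38 and 1.13 at 0 h, 0.966 and 1.25 at 24 h, then 1.14 and 1.08 at 96 h. These overlapped, with a log2 change of −0.17 (exact permutation p = 0.444, adjusted p = 0.494).

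**Figure D3:**
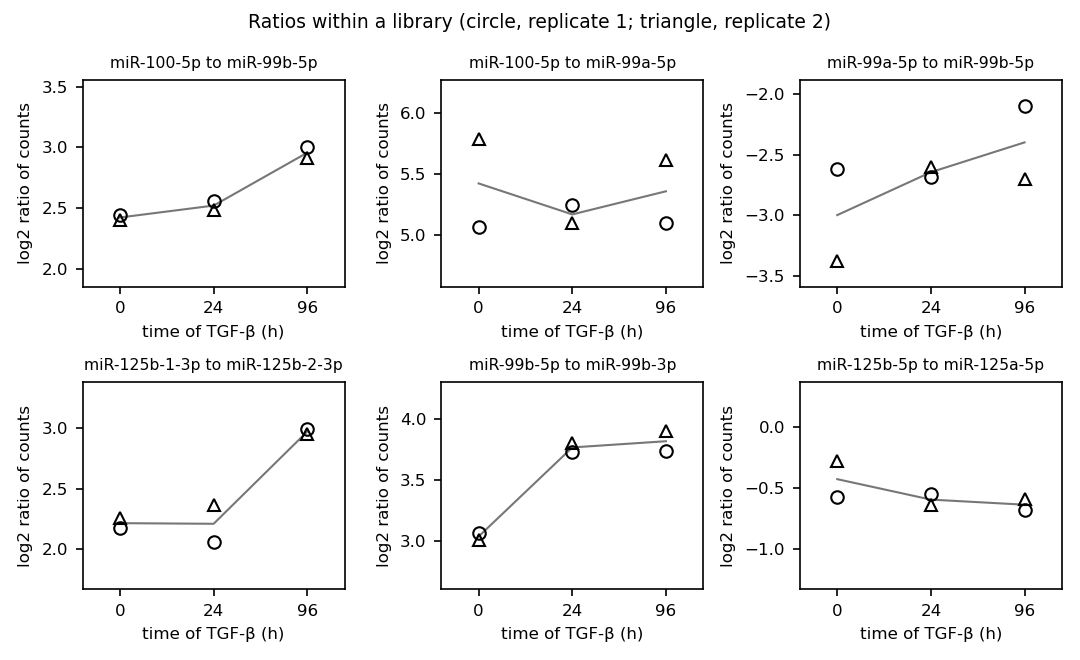
Log2 ratio of the counts of 2 members within a library (vertical axes, all with the same span) against the time of TGF-β in h, with a circle for replicate 1, a triangle for replicate 2, and a line through the means. MiR-100-5p to miR-99b-5p was 0.53 higher at 96 h than at 0 h with little spread, miR-99b-5p to miR-99b-3p was higher by 0.73 at 24 h and by 0.78 at 96 h, and the libraries of 0 h lay apart in both ratios with miR-99a-5p.

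The 5p to 3p ratio of the miR-99b hairpin was already higher at 24 h, a difference that did not pass after adjustment in the limma fit given below. Per read of the 3p strand there were 8.4 and 8.04 reads of the 5p strand at 0 h, 13.3 and 14.0 at 24 h, then 13.3 and 15.0 at 96 h. The treated libraries did not overlap with the 0 h libraries and did overlap with each other, a log2 change of 0.73 at 24 h and 0.78 at 96 h. The trend over all time points had an exact permutation p = 0.0444 (adjusted p = 0.111). For miR-125a, from the same cluster and with a much rarer 3p strand, the ratio was 81.5 and 97.4 at 0 h, 138 and 110 at 24 h, then 99.6 and 147 at 96 h, with a log2 change of 0.44 (exact permutation p = 0.244, adjusted p = 0.306).

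To place these changes, the 5p to 3p ratio was fitted with limma over all 108 miRNA names whose strands both passed the expression filter, an analysis added after the values of miR-99b had been seen. At 24 h miR-99b was at rank 3 of the 108 by change toward the 5p strand and at rank 12 by size in either direction, with 0.73 (SE 0.25, limma unadjusted p = 0.0285, adjusted p = 0.634), and at 96 h it was at rank 17 and at rank 28 by size, with 0.78 (SE 0.25, limma unadjusted p = 0.0220, adjusted p = 0.247). Toward the 5p strand miR-125a was at rank 18 at 24 h and 33 at 96 h. The miR-100 hairpin, whose 3p strand is rare, was at rank 87 at 24 h with −0.50 (limma adjusted p = 0.771) and at rank 26 at 96 h with 0.51 (limma adjusted p = 0.413). By limma, 0.00% of the 108 names had an adjusted p under 0.05 at either time, and 3 at 24 h and 19 at 96 h had an unadjusted p under 0.05. The middle 50% of names lay between −0.39 and 0.25 at 24 h and between −0.57 and 0.51 at 96 h.

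**Figure D4:**
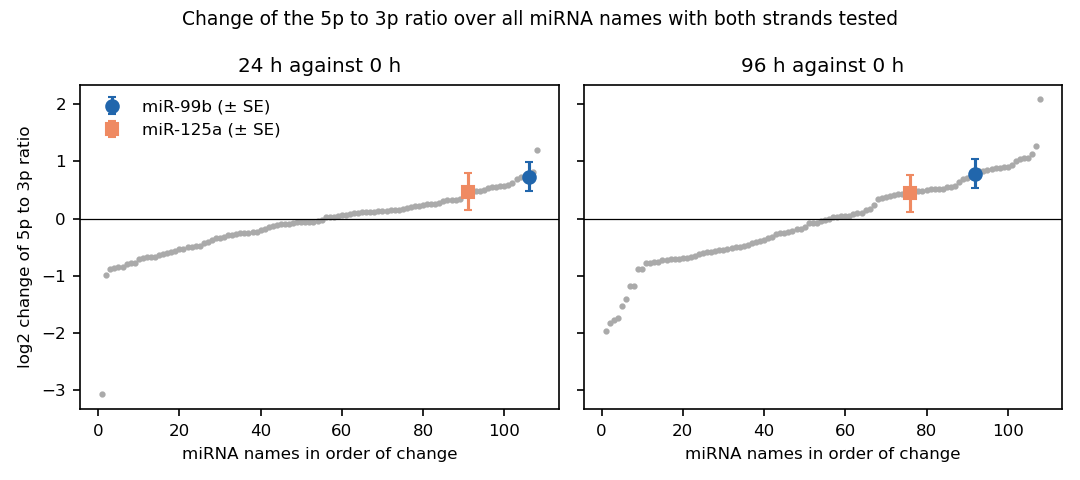
Log2 change of the 5p to 3p ratio within a library (vertical axis) for each of the 108 miRNA names with both strands tested, in order of change (horizontal axis), at 24 h and at 96 h against 0 h; miR-99b and miR-125a are marked with error bars for the SE of the limma fit. MiR-99b lies near the upper end at 24 h, with 0.73, and at a similar 0.78 within a wider spread of names at 96 h.

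In sum over the members, 4.04 and 4.34% of all reads fell on the family at 0 h, 4.41 and 4.24% at 24 h, then 4.06 and 4.81% at 96 h. The time points overlapped on this scale. In TMM CPM the same sum was 34609 and 31811 at 0 h, 41826 and 41734 at 24 h, then 55045 and 60826 at 96 h, with no overlap. The miR-99/100 strands went from 3.35 and 3.39% at 0 h to 3.48 and 4.05% at 96 h, and the miR-125 5p strands from 0.615 and 0.857% at 0 h to 0.534 and 0.717%, from 78146 to 207852 and 14366 to 33416 reads. For the miR-125 strands the scale set the direction of the means, which were 0.736 and 0.626% of reads but 5773 and 8153 TMM CPM at 0 and 96 h.

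The other strands of the 3 clusters, mostly let-7, were a separate list of 8, of which 7 were tested. At 96 h 3 of the 7 rose under TMM by adjusted p alone (22.8% of all tested) and 0 fell: let-7a-5p by 0.60 (adjusted p = 0.00943), let-7c-5p by 0.56 (adjusted p = 0.00843), and let-7e-5p by 0.50 (adjusted p = 0.0152, edgeR's quasi-likelihood test for all 3). On total counts all 3 had changes below 0 that did not pass, let-7a-5p −0.11 (adjusted p = 0.384), let-7c-5p −0.17 (adjusted p = 0.307), and let-7e-5p −0.21 (adjusted p = 0.152, edgeR). These let-7 strands repress growth-promoting targets in differentiated cells. Let-7a-5p comes from 3 hairpins, 1 of them in the chromosome 11 cluster, so its reads are not those of the cluster alone. Let-7a-2-3p (0.22), let-7e-3p (0.05), let-7c-3p (−0.58), and miR-100-3p (0.47) did not pass, and miR-99a-3p, with 2 to 8 reads per library, was not tested.

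By the Euclidean distance between log2 TMM CPM profiles centred over the 6 libraries, among 321 miRNAs of at least 10 CPM, the profiles most like miR-100-5p were those of miR-542-3p (0.19), miR-21-5p (0.21), miR-10b-5p (0.21), let-7f-5p (0.27), and miR-450b-5p (0.28). Nearest to miR-99b-5p were miR-30e-3p (0.17), miR-182-5p (0.21), miR-28-3p (0.21), let-7e-5p of the same cluster (0.24), and miR-148b-3p (0.25). Those nearest to miR-99a-5p were farther off, miR-335-3p (0.26), miR-361-3p (0.30), miR-148a-3p (0.33), miR-582-3p (0.36), and miR-493-3p (0.40). No list held another member of the family. The distances describe 6 libraries that share their scaling factors.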

How the data were processed

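The authors built libraries with Illumina's small RNA kit, sequenced them on an Illumina HiSeq instrument, and counted reads with miRDeep2, and the submitters' processing notes name FastQC and hg19. The miRNA set and the mapper's mismatch setting are not given in the sources used here. The deposited counts are whole reads per mature miRNA and precursor entry, without normalization, in 1 column per library. That a column holds both runs of a library is not stated. A deposited table of scaled values was not used.

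Members and lists were chosen with earlier results of these data known. In R 4.3.3, edgeR 4.0.16 was run with TMM factors, filterByExpr at a minimum count of 10, and 1 term for time over all 6 libraries. The quasi-likelihood F-test gave p-values, adjusted by the Benjamini-Hochberg method over the 491 tested miRNAs, and the SE is the absolute log2-fold change over the square root of F. Ratios are of counts + 0.5, and arm ratios over all miRNA names were fitted with limma 3.58.1. Alternatives were DESeq2 1.42.0 (size factors and Wald test), total counts with and without miR-21-5p, no filter, a mean of 10 CPM, no minimum fold change, the replicate block, sums over precursors, all entries, thinning, and leaving out libraries. Both fits were tested on simulated data, in which the arm-ratio fit missed most shifts of 1 on the log2 scale. Reads carry no molecular identifiers, so intervals and limits cover counting error only. Named miRNAs were the 9 members, the cluster and miR-10 lists, and the 5 nearest profiles of 3 members. Figures were drawn with matplotlib 3.10.9.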

Additional observations from a re-analysis of the deposited data

Results flagged for a closer look

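MiR-100-5p differed between the 2 treated times under TMM. Its log2-fold change against the same 0 h libraries was 0.35 at 24 h and 0.95 at 96 h, and the direct comparison of 96 h with 24 h gave 0.60 (adjusted p = 0.0245 by the quasi-likelihood test of edgeR, adjusted by the Benjamini-Hochberg method). On total counts the same comparison gave 0.17 (adjusted p = 0.246, edgeR), and under TMM the adjusted p was 0.0760 to 0.252 (edgeR) when a 24 h or 96 h library was left out. Under TMM the level was higher in both 96 h libraries than in both 24 h libraries. These libraries also differ between the 2 times in the later date of their titles.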

How the results depend on the processing

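The number of members called at 96 h against 0 h was 0 as reported, 2 with DESeq2's size factors, with the DESeq2 Wald test, and without an expression filter (miR-99a-5p and miR-100-5p each time), 1 with only the libraries compared (miR-99a-5p), 1 on total counts (miR-99b-3p), and 6 without a minimum fold change. Of all miRNAs tested in each, the share called at 96 h was 26.1% with these size factors, 22.8% with the Wald test, 10.4% without a filter, 25% with only the libraries compared, and 43.8% on total counts, against 25.9% as reported. Without a minimum fold change the share of all tested was 44.0% at 96 h against 0 h. At 96 h against 24 h that rule called 1 member, against 12.6% of all tested. Leaving out 1 library moved the log2-fold change at 96 h against 0 h to between 0.86 and 1.09 for miR-100-5p. For miR-99a-5p it moved to between 0.58 and 1.53, so both ranges include the minimum change of 1. With the replicate block, 0 members were called in each comparison. Of all tested miRNAs, it called 4.07% at 24 h, 25.3% at 96 h, and 8.35% at 96 h against 24 h. Correlations between the deviations of same-numbered libraries were −0.30, 0.31, and −0.18. They show no shared block, but cannot tell whether the libraries were paired. With the block, adjusted p-values at 96 h became 0.0677 for miR-99b-5p and 0.105 for miR-99b-3p (edgeR).

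Signs turned mostly on total counts, where the median change of all tested miRNAs at 96 h against 0 h was −0.83. Under TMM, which sets the bulk of miRNAs equal by construction, that median was −0.10. Which of the scalings is nearer to the levels in the cells was not tested. At 24 h against 0 h the log2-fold changes there were −0.034 for miR-99b-5p, −0.040 for miR-125b-5p, −0.051 for miR-125b-1-3p, and −0.041 for miR-125b-2-3p. At 96 h against 0 h they were −0.30 for miR-99b-5p, −0.14 for miR-125a-5p, −0.37 for miR-125b-5p, −0.58 for miR-125a-3p, and −0.21 for miR-125b-1-3p, and from 24 to 96 h −0.023 for miR-99a-5p, −0.27 for miR-99b-5p, −0.29 for miR-125a-5p, −0.33 for miR-125b-5p, −0.32 for miR-99b-3p, −0.26 for miR-125a-3p, and −0.16 for miR-125b-1-3p. On total counts without miR-21-5p, miR-125a-3p was at −0.20 at 96 h against 0 h, and from 24 to 96 h miR-99b-5p was at −0.0031, miR-125a-5p at −0.024, miR-125b-5p at −0.065, and miR-99b-3p at −0.058. The rest were values near 0: miR-125a-3p at 24 h ranged from −0.12 to 0.071 when a library was left out, at 96 h it was −0.0038 after thinning, and miR-125b-5p at 96 h against 24 h ranged from −0.013 to 0.35 when a library was left out. In these, as in the counts above, the cause was not tested beyond the change of scale.

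Of the ratios, miR-100-5p to miR-99a-5p turned sign, with −0.43 to 0.30 when a library was left out (0.30 without 0 h replicate 2, 0.19 without 96 h replicate 1). Of the log2-fold changes, 384 values kept their sign and their side of 0.05, 14 passed it anew, and 36 lost it. All 28 values of the arm ratio kept both. For the arm ratios the lowest adjusted p as reported was 0.247 (limma), so keeping their side of 0.05 says little about how stable they are. MiR-100-5p passed at 96 h against 0 h under every alternative except total counts. Depth limited miR-125b-2-3p and miR-125a-3p most, with 73 to 97 and 94 to 197 reads per library.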

Other observations

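The miR-10 family has a 5p sequence related to that of miR-99/100 and was kept as a separate list of 4, of which 3 were tested. MiR-10b-5p rose at 96 h by 0.77 (SE 0.16, adjusted p = 0.00443 by the quasi-likelihood test of edgeR, adjusted over all tested miRNAs), and miR-10a-3p fell by 0.60 (SE 0.20, adjusted p = 0.0350, edgeR), while miR-10a-5p had a log2-fold change of 0.23 (SE 0.15, adjusted p = 0.240, edgeR), all under TMM. On total counts these were 0.059 (adjusted p = 0.768), −1.34 (adjusted p = 0.000996), and −0.49 (adjusted p = 0.00956, edgeR), so that the rise of miR-10b-5p was lost and the sign of miR-10a-5p turned. At 24 h 0 of the 3 passed under TMM. The difference between miR-10b-5p and miR-10a-5p was not tested.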
